A study of Mus musculus with 14 samples.

Results

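The junctions that seal and join the cells of the developing mouse lung were followed through 10 genes, the claudins Cldn1, Cldn3, Cldn4, Cldn5, Cldn6, Cldn7 and Cldn18, occludin (Ocln), ZO-1 (Tjp1) and E-cadherin (Cdh1), taken by symbol out of 18193 genes with a probe set of their own. All 10 were on the array, through 18 probe sets, and each gene was read from its brightest probe set on average, with the others as a check. Whole-lung RNA of ICR mice, labelled female, was hybridised to 14 Affymetrix arrays, with 2 arrays at each of E12, E14, E16 and E18 (embryonic days, with the plug day as day 0), P2 and P10 (postnatal days) and Adult (postnatal day 30). The paper applies female to the mice bred for timed pregnancies, so the sex of the pooled lungs is not settled. The labels name no mutation or treatment, and the lungs were pooled before RNA isolation. The sources used here give neither the number of lungs in a pool nor whether paired arrays came from different pools, so each SD, SE and p measures the spread between arrays, which may be technical.

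Claudins are tetraspan membrane proteins that polymerise into the strands of tight junctions, and the claudins a cell makes set how tightly it seals and which ions it lets through. Occludin is a further strand protein, and ZO-1 is a scaffold that ties the strands to actin. E-cadherin holds epithelial cells together at the adherens junction below them. In the lung these genes are known mainly from epithelium, except Cldn5, the main claudin of endothelium, and Tjp1, which many cell types use. Cldn18 is known from alveolar epithelium, and from stomach through a different first exon. Cldn6 is known from embryonic epithelia.

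Values are log2 signals, so a difference of 1 is a doubling, and they are compared between time points of the same probe set only. A probe set was dynamic, by the thresholds of the study, when its adjusted p was under 0.05 in limma's moderated F test across the 7 time points, its highest time-point mean (Max) was above 7 and the difference between highest and lowest mean (Range) was above 1.2. A difference between 2 time points was called at an adjusted p under 0.05, a size above 1.2 and a higher mean above 7, while "rose" and "fell" need only the adjusted p. In whole lung, fewer cells of a type and less RNA per cell cannot be told apart.

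The later arrays carried lung. The mean of 9 alveolar type II cell markers was 13.37 in Adult and 7.83 at E12. That of 9 type I cell markers was 12.42 in Adult and 7.93 at E12. At E14 these means were 8.34 and 8.30, so they cannot show which tissue the E12 and E14 arrays carried. Array medians lay between 6.55 and 6.62, and replicates correlated at 0.9953 to 0.9977. The 8 heart muscle markers set the E16 arrays apart, with means of 11.07 in replicate 1 and 8.35 in replicate 2, as did the 6 thymus markers to a lesser degree, at 6.31 and 5.66 in the same order. The means of 6 liver markers ran from 5.49 to 6.16, and those of 5 basal cell markers from 5.47 to 6.04.

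The sequences around the transcription start are shown for Cldn6, the gene that fell most, for Cldn3 and Cldn4, which lie next to each other on chromosome 5 and moved in opposite directions between Adult and E12, and for both annotated starts of Cldn18, the gene that rose most. They come from RefSeq (GRCm38.p6) and run from 250 bases before to 50 after the start, 5′ to 3′ on the gene's strand. Capitals mark CAGGTG or its reverse complement CACCTG, the E-box form that the epithelial repressors Snail and Zeb bind, and CAAGTG or CACTTG, a form that the lung transcription factor NKX2-1 binds. The windows are chr17:23679115-23679414 (plus strand), chr5:134985964-134986263 (plus), chr5:134946885-134947184 (minus), chr9:99717218-99717517 (minus, upstream start of Cldn18) and chr9:99710014-99710313 (minus, downstream start).
Cldn6: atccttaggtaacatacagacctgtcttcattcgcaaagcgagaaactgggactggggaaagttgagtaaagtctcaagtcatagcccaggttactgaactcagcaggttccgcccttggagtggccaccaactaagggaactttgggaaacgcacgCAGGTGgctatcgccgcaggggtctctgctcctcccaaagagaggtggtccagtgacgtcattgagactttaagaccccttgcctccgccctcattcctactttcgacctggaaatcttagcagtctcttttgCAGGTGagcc
Cldn3: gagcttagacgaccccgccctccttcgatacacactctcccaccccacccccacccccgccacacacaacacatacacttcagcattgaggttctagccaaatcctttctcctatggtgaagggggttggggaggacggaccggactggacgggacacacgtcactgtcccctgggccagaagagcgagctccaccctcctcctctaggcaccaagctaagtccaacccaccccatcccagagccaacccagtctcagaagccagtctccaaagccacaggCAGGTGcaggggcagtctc
Cldn4: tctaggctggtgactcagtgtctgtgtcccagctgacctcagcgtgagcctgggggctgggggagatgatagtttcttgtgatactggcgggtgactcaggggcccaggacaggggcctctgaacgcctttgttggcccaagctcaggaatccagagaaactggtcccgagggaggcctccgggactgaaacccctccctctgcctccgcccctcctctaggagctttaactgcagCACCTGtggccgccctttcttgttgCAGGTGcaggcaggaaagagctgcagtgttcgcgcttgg
Cldn18 upstream start: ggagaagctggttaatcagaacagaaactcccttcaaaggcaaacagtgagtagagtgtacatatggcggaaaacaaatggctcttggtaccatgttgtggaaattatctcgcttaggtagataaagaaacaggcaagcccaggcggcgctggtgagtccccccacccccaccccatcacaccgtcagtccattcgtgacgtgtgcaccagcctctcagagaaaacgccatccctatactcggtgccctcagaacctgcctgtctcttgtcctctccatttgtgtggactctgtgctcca
Cldn18 downstream start: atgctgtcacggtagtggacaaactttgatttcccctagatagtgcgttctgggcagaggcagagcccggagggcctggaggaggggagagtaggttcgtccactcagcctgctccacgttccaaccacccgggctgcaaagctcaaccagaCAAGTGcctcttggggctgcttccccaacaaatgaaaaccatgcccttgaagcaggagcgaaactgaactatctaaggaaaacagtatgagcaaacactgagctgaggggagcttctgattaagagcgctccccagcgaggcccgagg
Of the 10 genes, 9 had such a sequence, with 12 windows. Cdh1 had none, so its promoter was not read. The Snail and Zeb letters were in 6 of the 12 windows, from 5 genes (Cldn3, Cldn4, Cldn6, Cldn7 and Ocln, whose 2 windows overlap), against 20.2% of 32851 promoter windows of the same length. The NKX2-1 letters were in 3 of 12 (Cldn1, one start of Cldn7 and the downstream start of Cldn18), against 13.6% of all windows. AACCNGTT or AACNGGTT, which Grainyhead-like factors of epithelium bind, was in 1 of 12 (Cldn5), against 2.09%. In Cldn4 the 2 matches began at -14 and 12 from the start, in Cldn6 at -93 and 41, in Cldn3 at 32, and in the downstream window of Cldn18 at -98. These matches describe letters and not binding.

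Of the 10 genes 9 were dynamic, against 21% of all 45037 probe sets, and Cldn7 was not. Between Adult and E12, 6 were called higher (Cldn18, Cldn5, Cdh1, Ocln, Tjp1 and Cldn3) and 2 lower (Cldn6 and Cldn4), against 7.8% and 8.78% of all probe sets. By the adjusted p alone the counts were 7 and 3, against 28.7% and 31.3%. Their median difference was 1.30, beside 0.03 over all probe sets and 0.08 over all genes, each read from its brightest probe set. Each of the 10 had a Max above 7, so the level threshold removed none, but Cldn6 passed it through E12 to E16 alone, Cldn4 through E12 to P2, and Cldn1 (Max 8.13) through E12, E16 and E18.

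**Figure D1:**
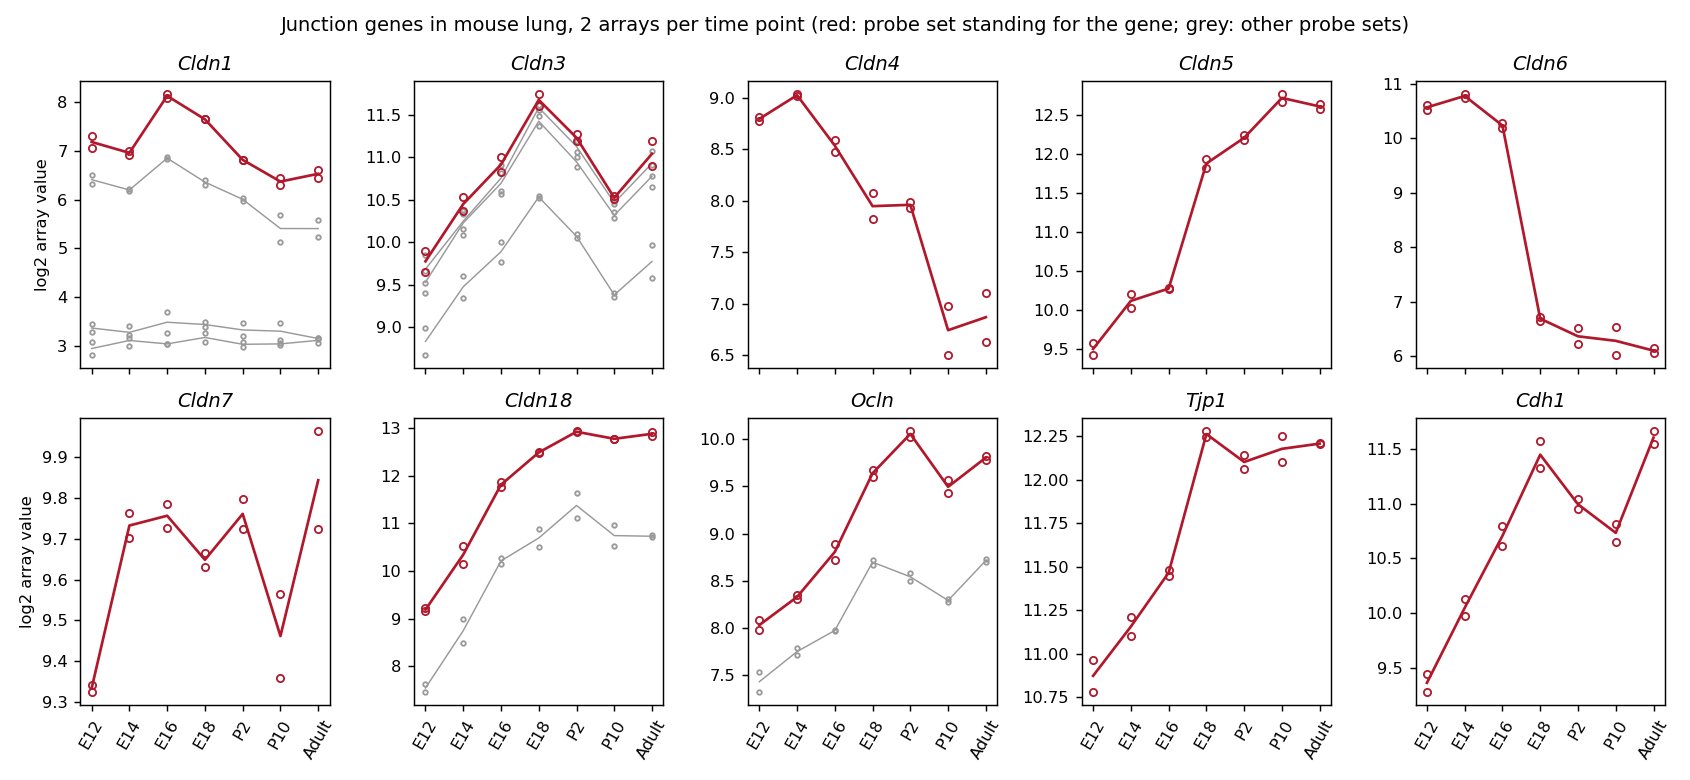
Log2 array values of the 10 junction genes at the 7 time points, with a separate vertical scale for each gene. Circles are single arrays (2 per time point), lines join the means, red is the probe set standing for the gene and grey the other probe sets. Cldn6 drops between E16 and E18, whereas Cldn18 climbs until P2.

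Cldn18, the alveolar epithelial claudin, made the largest rise of the 10. Its replicates were at 9.15 and 9.22 at E12, 10.16 and 10.53 at E14, 11.86 and 11.77 at E16, 12.47 and 12.51 at E18, 12.91 and 12.94 at P2, 12.78 and 12.78 at P10, and 12.92 and 12.85 in Adult. No array of a time point up to E18 overlapped with those of another, and from P2 on the values lay within a narrow band. It averaged 12.88 ± 0.05 in Adult and 9.19 ± 0.05 at E12 (SD, n = 2 arrays each), a rise of 3.70 (SE 0.11, adjusted p = 6.51e-12) or 12.96-fold.

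Most of this rise came early. Cldn18 rose by 1.16 (SE 0.11, adjusted p = 0.000135) in E14 against E12, by 1.47 (adjusted p = 2.21e-06) in E16 against E14, and by 0.68 (adjusted p = 0.000229) in E18 against E16. It was the one gene of the 10 called in E16 against E14, where 0.706% of probe sets were called higher and 0.231% lower. Without E14 replicate 1 the rise in E14 against E12 was 1.35 (adjusted p = 4.81e-05), past the threshold of 1.2. In P2 against E18 it rose by 0.44 (adjusted p = 0.0172). In order of level, P10, Adult and P2 were neighbours that did not pass the test (adjusted p of 0.562 and 0.832), nor did E18 and P10 (0.078). The other probe set of Cldn18 gave 3.19 (SE 0.199, adjusted p = 7.21e-09) for Adult against E12 and was likewise highest at P2. Its difference in E18 against E16 did not pass (0.48, adjusted p = 0.0733). After P2 its values spread more widely, with a difference of -0.63 (0.0817) in P10 against P2. Which start either probe set reads was not analysed here.

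Since stomach also makes Cldn18, 11 stomach and oesophagus markers were read on the same arrays. Their mean ran from 6.04 to 6.36 over the 14 arrays and none of them was dynamic. Gkn1, a gastrokine of stomach surface cells, had time-point means no higher than 5.85, and Atp4a, the proton pump of acid-secreting cells, no higher than 5.55. Of the 11, 3 had a Max above 7, namely Tff1 (8.88 at E12 and 9.31 in Adult), Gkn3 (7.64 at E16) and Muc5ac (7.21 at P10). By the adjusted p alone 4 of the 11 rose in Adult against E12, namely Tff2 by 0.94 (adjusted p = 0.00101) and Tff1 by 0.43 (0.0041), both trefoil peptides of mucus, the mucin Muc5ac by 0.51 (0.00198) and Gkn3 by 0.38 (0.00353), and none fell. Their part in the Cldn18 values was not tested.

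Cldn6, the claudin of embryonic epithelia, fell further than any other of the 10 and mostly in 1 step. Its replicates were at 10.62 and 10.52 at E12, 10.74 and 10.81 at E14, 10.18 and 10.28 at E16, 6.66 and 6.72 at E18, 6.22 and 6.51 at P2, 6.54 and 6.03 at P10, and 6.15 and 6.05 in Adult. All 6 arrays up to E16 were above 10 and all 8 from E18 on were below 7. It averaged 6.69 ± 0.04 at E18 and 10.23 ± 0.07 at E16 (SD, n = 2 arrays each), a fall of 3.54 (SE 0.144, adjusted p = 1.05e-09), or 11.67-fold. This step was 79.4% of the log2 difference between Adult and E12, which was -4.46 (adjusted p = 1.24e-11). No other of the 10 was called lower at this step, where 2.48% of probe sets were.

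The changes of Cldn6 before and after that step were smaller. It fell by 0.54 (SE 0.144, adjusted p = 0.0201) in E16 against E14. The differences were 0.21 for E14 against E12 (adjusted p = 0.583), -0.32 for P2 against E18 (0.161), -0.08 for P10 against P2 (0.832) and -0.18 for Adult against P10 (0.427). Over the whole time after that step, in Adult against E18, it fell by 0.59 (adjusted p = 0.00602). The value table gives no detection calls, so whether the late values lie above background was not tested. Without E16 replicate 1, the array richer in heart muscle markers, the fall in E18 against E16 was 3.60. E16 replicate 2 was not free of them, with Myl2 at 8.84, beside 12.63 in E16 replicate 1 and 4.83 and 4.84 at E18. Cldn9, the neighbouring claudin gene, stayed near the lower part of the scale and differed by -0.46 between Adult and E12 (5.47 in Adult and 5.93 at E12, adjusted p = 0.00208).

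Cldn4 and Cldn1 also fell, at other times. Cldn4, which tightens the junctions of many epithelia, was at 8.77 and 8.82 at E12, 9.01 and 9.04 at E14, 8.59 and 8.48 at E16, 7.82 and 8.08 at E18, 7.99 and 7.93 at P2, 6.98 and 6.51 at P10, and 7.11 and 6.63 in Adult. Its arrays fell into 3 bands, with E12 to E16 on top, E18 and P2 in the middle and P10 and Adult at the bottom. In Adult against E12 it fell by 1.93 (SE 0.163, adjusted p = 1.64e-07). The step called was P10 against P2, a fall of 1.22 (SE 0.163, adjusted p = 0.000622) where 0.173% of probe sets were called lower. That call rests on a difference barely past 1.2, and without P10 replicate 2 the difference was -0.98 (adjusted p = 0.00924) and without P2 replicate 1 it was -1.19 (0.0108).

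Cldn1, a claudin that epithelial barriers cannot do without in skin, had a short peak. It was at 7.31 and 7.05 at E12, 7.00 and 6.92 at E14, 8.17 and 8.09 at E16, 7.65 and 7.65 at E18, 6.81 and 6.82 at P2, 6.30 and 6.44 at P10, and 6.61 and 6.45 in Adult. The E16 arrays were above all others, with the E18 arrays next. It rose by 1.17 (SE 0.103, adjusted p = 7.96e-06) in E16 against E14, just under the threshold of 1.2, and past it without E14 replicate 1 (1.21) or E16 replicate 2 (1.21). It then fell by 0.48 (adjusted p = 0.00194) in E18 against E16 and by 0.83 (adjusted p = 0.000129) in P2 against E18. Another probe set of Cldn1 was also highest at E16 (6.85 ± 0.03) and below the level threshold throughout. It rose by 0.65 (adjusted p = 0.0107) in E16 against E14 and fell by 0.49 (0.0213) in E18 against E16. Its difference of -0.35 in P2 against E18 did not pass (0.153). The remaining probe sets of Cldn1 stayed between 2.81 and 3.70 on every array and did not pass the F test (adjusted p of 0.508 and 0.598).

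Cldn5, the endothelial claudin, rose in 1 large step before birth and went on rising until P10. Its replicates were at 9.43 and 9.57 at E12, 10.20 and 10.03 at E14, 10.28 and 10.27 at E16, 11.93 and 11.82 at E18, 12.24 and 12.17 at P2, 12.67 and 12.77 at P10, and 12.57 and 12.64 in Adult. E14 and E16 lay close together, with a wide gap up to the E18 arrays. It averaged 11.88 ± 0.08 at E18 and 10.27 ± 0.01 at E16 (SD, n = 2 arrays each), a rise of 1.60 (SE 0.0955, adjusted p = 2.37e-08), and no other of the 10 was called higher at this step, against 2.82% of probe sets. In Adult against E12 it rose by 3.11 (adjusted p = 8.14e-12) or 8.63-fold. In order of level, E14 and E16 (adjusted p = 0.311) and Adult and P10 (0.473) were neighbours that did not pass.

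All 14 endothelial markers were called higher in Adult against E12, beside 7.8% of all probe sets, with a median of 2.46, among them Vwf, the clotting factor carrier of endothelium, at 5.31 (SE 0.193, adjusted p = 3.43e-11), and Tek, the receptor of angiopoietins, at 3.44 (adjusted p = 3.09e-12). With the mean of these markers subtracted on each array, Cldn5 was at 1.40 in Adult and 0.86 at E12, a difference of 0.54 (SE 0.117, adjusted p = 0.000332), where the median of all probe sets was -2.55 and 0.988% of them were called higher. With the median of the markers in place of their mean the difference was 0.16 (adjusted p = 0.254). The correlation of Cldn5 with the marker mean over the 14 arrays was 0.981, beside 0.95 for Tjp1, 0.935 for Cldn18 and 0.926 for Ocln, all over the same time course.

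**Figure D2:**
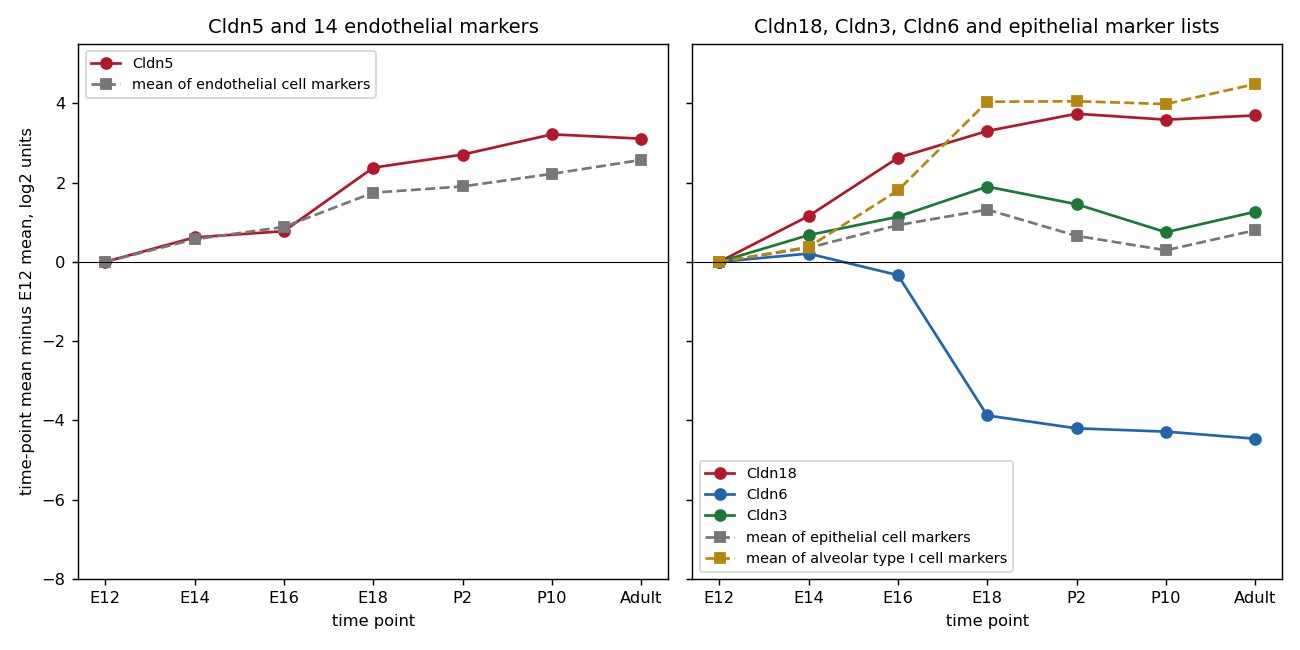
Change of time-point means from E12 in log2 units, for Cldn5 beside the mean of 14 endothelial markers, and for Cldn18, Cldn3 and Cldn6 beside the means of 13 epithelial and 9 alveolar type I cell markers. Cldn5 and its markers part at E18, Cldn3 peaks at E18 as the epithelial mean does, and Cldn6 ends 4.46 below its E12 level.

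Cdh1 and Cldn3 both rose until E18, fell at P2 and rose again in Adult against P10. Cdh1 was at 9.44 and 9.28 at E12, 9.97 and 10.12 at E14, 10.62 and 10.80 at E16, 11.57 and 11.32 at E18, 10.95 and 11.04 at P2, 10.65 and 10.81 at P10, and 11.54 and 11.66 in Adult. The Adult and E18 arrays overlapped at the top and those of E16 and P10 overlapped in the middle. Cdh1 rose by 0.69 (SE 0.115, adjusted p = 0.00532), 0.66 (0.00165) and 0.74 (0.000154) over the 3 embryonic steps, fell by 0.45 (0.0175) in P2 against E18, and rose by 0.87 (adjusted p = 7.62e-05) in Adult against P10. In Adult against E12 it rose by 2.24 (SE 0.115, adjusted p = 1.01e-09).

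Cldn3, a sealing claudin of many epithelia, was at 9.65 and 9.90 at E12, 10.37 and 10.52 at E14, 11.003 and 10.82 at E16, 11.60 and 11.74 at E18, 11.27 and 11.19 at P2, 10.50 and 10.54 at P10, and 11.19 and 10.89 in Adult. E18 stood highest and E12 lowest, without overlap with any other time point. It rose by 0.67 (SE 0.123, adjusted p = 0.00838), 0.47 (0.0194) and 0.76 (0.000207) over the embryonic steps, fell by 0.44 (0.0267) in P2 against E18 and by 0.71 (0.00367) in P10 against P2, and rose by 0.52 (0.00629) in Adult against P10. In Adult against E12 it rose by 1.27 (adjusted p = 6.66e-07), close to the threshold. Without E12 replicate 1 this difference was 1.14 (adjusted p = 2.02e-05) and without Adult replicate 1 it was 1.12 (1.41e-05), both under 1.2. The other 3 probe sets of Cldn3 were highest at E18 too, with Adult minus E12 differences of 0.94 to 1.25.

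Cldn4, the neighbour of Cldn3 on chromosome 5, took the opposite direction in E18 against E16, where it fell by 0.59 (adjusted p = 0.0105) while Cldn3 rose by 0.76. In P10 against P2 both fell, Cldn4 by 1.22 (adjusted p = 0.000622) and Cldn3 by 0.71 (0.00367). Over the 7 time-point means their correlation was -0.333, and that of Cldn3 with Cdh1 was 0.896.

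Ocln and Tjp1, the strand protein and the scaffold, rose before birth and stayed above their E12 levels. Ocln was at 8.08 and 7.97 at E12, 8.31 and 8.35 at E14, 8.72 and 8.89 at E16, 9.60 and 9.68 at E18, 10.09 and 10.03 at P2, 9.43 and 9.57 at P10, and 9.83 and 9.78 in Adult. It rose by 0.83 (SE 0.0931, adjusted p = 8.11e-06) in E18 against E16, was highest at P2, fell by 0.56 (0.00277) in P10 against P2 and rose by 0.31 (0.0248) in Adult against P10. Its difference between Adult and E12 was 1.78 (adjusted p = 1.2e-09), and 1.29 with its other probe set. That probe set was highest in Adult (8.71) and not at P2, and its difference in P10 against P2 was -0.25 (adjusted p = 0.136). In P2 against E18 it differed by -0.16 (adjusted p = 0.301), whereas the probe set standing for Ocln rose by 0.42 (0.0082).

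Tjp1 was at 10.78 and 10.96 at E12, 11.21 and 11.10 at E14, 11.48 and 11.45 at E16, 12.28 and 12.25 at E18, 12.06 and 12.14 at P2, 12.10 and 12.25 at P10, and 12.20 and 12.21 in Adult. The 8 arrays from E18 on lay between 12.06 and 12.28, above all earlier ones. It rose by 0.80 (SE 0.0945, adjusted p = 1.4e-05) in E18 against E16 and by 1.33 (adjusted p = 2.59e-08) in Adult against E12, while no neighbouring pair among P2, P10, Adult and E18 passed the test (adjusted p of 0.703 to 0.87).

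Cldn7, found in most epithelia, was the steadiest of the 10. Its 14 arrays ran from 9.32 (E12 replicate 1) to 9.96 (Adult replicate 1), and its Range of 0.51 was below the threshold of 1.2. The F test itself passed, with an adjusted p of 0.00424, and Adult was higher than E12 by 0.51 (SE 0.102, adjusted p = 0.000589). Apart from Adult against P10, where it rose by 0.38 (adjusted p = 0.0126), no step passed, the nearest being E14 against E12 with 0.40 (0.0506). Just inside the Range threshold stood Tjp1 with 1.39.

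**Figure D3:**
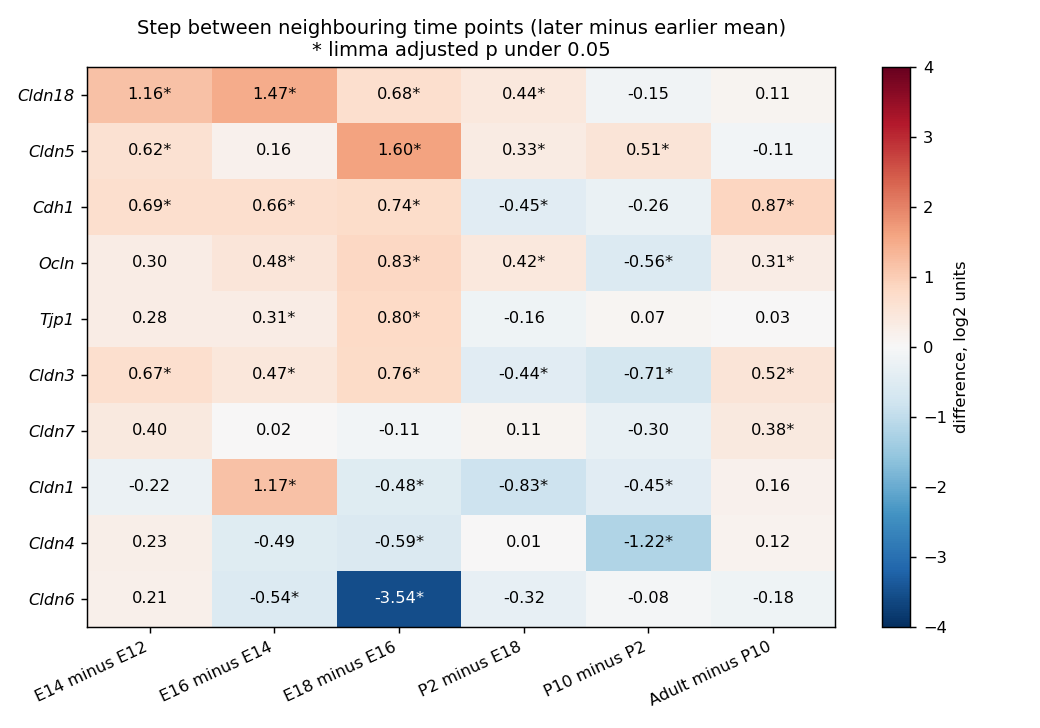
Difference between neighbouring time points, later minus earlier mean in log2 units, for each gene, ordered by Adult minus E12. Red is higher and blue lower in the later time point, and a star marks a limma adjusted p under 0.05, with Cldn6 in E18 against E16 (-3.54) as the darkest cell.

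Step by step, the 10 genes moved most widely between E16 and E18. At that step 6 rose and 3 fell by the adjusted p alone, against 20.5% and 19.3% of all probe sets, with differences between -3.54 and 1.60. In E14 against E12, 4 rose (Cldn18, Cdh1, Cldn3 and Cldn5) and 0 fell, against 2.27% and 1.07%, and none was called by size and level as well (0.12% and 0.0355% of probe sets). In E16 against E14, 6 rose and 1 fell (7.23% and 9.72%), Cldn6 being the one that fell. After birth the directions were mixed, with 3 higher and 3 lower in P2 against E18 (6.87% and 8.17%) and 1 higher and 4 lower in P10 against P2 (3.47% and 3.41%). With size and level, 0 were called in P2 against E18 (0.36% higher and 0.571% lower among all), and the fall of Cldn4 was the one call in P10 against P2 (0.184% and 0.173%). In Adult against P10, 4 rose (Cdh1, Cldn3, Cldn7 and Ocln) and 0 fell (12.8% and 13.5%), none past 1.2 (1.42% and 1.31%). Neighbouring steps share a time point, so a high or low mean there enters both.

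Because the share of epithelium in whole lung is not fixed, the 10 genes were also set against 13 epithelial markers outside the 10. The mean of these markers was lowest at E12 (9.11), passed through 9.46 (E14) and 10.04 (E16) to a peak of 10.43 (E18), and then read 9.76 (P2), 9.40 (P10) and 9.91 (Adult). In Adult against E12, 5 of the 13 were called higher and 1 lower, beside 7.8% and 8.78% of all probe sets. Among them were Krt19, a keratin of simple epithelium, at 2.61 (adjusted p = 1.25e-08), and Epcam, an epithelial adhesion protein and the one that was lower, at -1.51 (adjusted p = 8.77e-09).

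With the marker mean subtracted on each array, 3 of the 10 were called higher in Adult than at E12 (Cldn18, Cldn5 and Cdh1) and 3 lower (Cldn6, Cldn4 and Cldn1), against 4.43% and 27.4% of all probe sets, whose median moved to -0.77. Cldn18 was higher by 2.90 (SE 0.114, adjusted p = 1.82e-12) and Cdh1 by 1.44 (SE 0.131, adjusted p = 3.92e-08). Cldn6 was lower by 5.27, Cldn4 by 2.73 and Cldn1 by 1.45 (SE 0.112, adjusted p = 5.1e-09). The other 4 differed by less than 1.2 relative to the markers, namely Cldn3 (0.47), Tjp1 (0.54), Cldn7 (-0.29) and Ocln (0.98). In E18 against E16 the same subtraction left Cldn6 lower by 3.94 (adjusted p = 1.16e-11) and Cldn5 higher by 1.21 (5.35e-07), against 6.4% and 1.63% of probe sets, whose median moved to -0.37. Cldn5 lost this call without E16 replicate 2 (1.19) or E18 replicate 1 (1.13). With the median of the markers in place of their mean, Cldn1 in Adult against E12 was at -1.17 and lost its call, and Ocln at 1.26 gained one. Cldn5 is known mainly from endothelium, so its value here only sets it against epithelial markers.

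**Figure D4:**
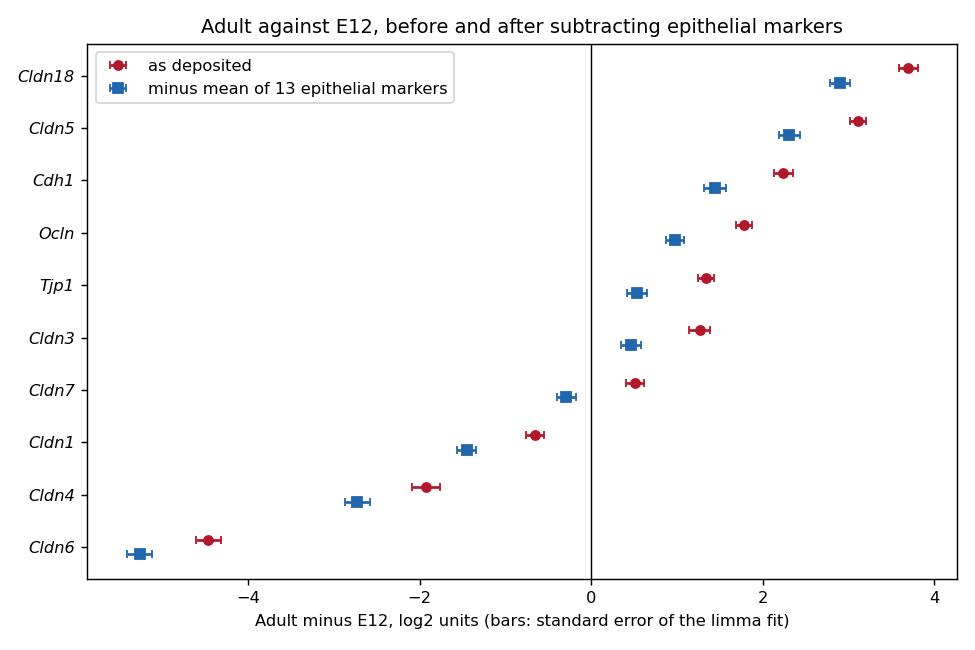
Adult minus E12 in log2 units for each gene, as deposited (red circles) and after subtracting the mean of 13 epithelial markers on each array (blue squares), with the standard error of the limma fit as bars. Cldn18 stays far above 0 and Cldn6 far below 0 in both, and Cldn7 changes sign.

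Further claudins were mostly low or flat. Of 20 other claudins listed, 14 had a probe set and 6 of these a Max above 7. In Adult against E12, 1 was called higher and 0 lower, and by the adjusted p alone 5 rose and 2 fell, beside 28.7% and 31.3% of all probe sets. The one called was Cldn8, known from kidney and gut, at 7.06 in Adult and 4.79 at E12, a rise of 2.27 (SE 0.156, adjusted p = 1.94e-08). Cldn12 stayed between 9.16 and 9.60. Cldn10, an ion-selective claudin and picked after its values were seen, had the widest course of them, with means of 8.71 (E12), 9.28 (E14), 10.35 (E16), 11.45 (E18), 9.53 (P2), 8.20 (P10) and 9.24 (Adult). It fell by 1.92 (SE 0.105, adjusted p = 1.21e-07) in P2 against E18 and by 1.33 (adjusted p = 9.79e-06) in P10 against P2.

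The partners of claudins in the tight junction mostly rose. Of 28 listed, 25 had a probe set, and 9 were called higher and 1 lower in Adult against E12, beside 7.8% and 8.78% of all probe sets, with a median of 0.81. By the adjusted p alone 21 rose and 2 fell (28.7% and 31.3% of all). Ildr2, a protein of junction corners, rose by 2.91 (SE 0.162, adjusted p = 2.24e-09), and Pard6b, a polarity protein, by 2.81 (SE 0.132, adjusted p = 4.02e-10). Pard6b took this rise in 1 step, since it was at 9.96 at E18 and 7.16 at E16, a difference of 2.80 (adjusted p = 3.35e-09). F11r, the adhesion molecule JAM-A, rose by 1.30 (adjusted p = 1.23e-05) over that step. Esam, an endothelial member of this group, rose by 2.30 in Adult against E12 (adjusted p = 4.6e-11). Jam3 fell by 2.10 (SE 0.0911, adjusted p = 1.88e-10).

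Among 20 adherens junction genes, 3 were called higher and 2 lower in Adult against E12, beside 7.8% and 8.78% of all probe sets, with a median of 0.46. By the adjusted p alone 11 rose and 7 fell, beside 28.7% and 31.3%. Cdh2, N-cadherin of mesenchyme and nerve, was at 4.88 in Adult and 9.42 at E12, a fall of 4.54 (SE 0.184, adjusted p = 9.42e-11), and Cdh11, a cadherin of mesenchyme, fell by 1.68 (adjusted p = 2.67e-09). Cdh5, the cadherin of endothelium, rose by 2.77 (SE 0.113, adjusted p = 1.01e-10), with a step of 1.43 (3.1e-07) in E18 against E16 beside the 1.60 of Cldn5. Vcl, vinculin, rose by 1.65 (adjusted p = 2.23e-09). Jup, plakoglobin, rose by 2.45 (adjusted p = 3.56e-11), whereas beta-catenin (Ctnnb1) had means between 13.51 and 13.80.

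Of 13 desmosome genes on the array, 4 were called higher and 0 lower in Adult against E12, beside 7.8% and 8.78% of all probe sets, with a median of 0.40. By the adjusted p alone 8 rose and 1 fell (28.7% and 31.3% of all). Perp, a desmosomal membrane protein, rose by 2.81 (SE 0.221, adjusted p = 7.59e-08), Ppl, periplakin, by 2.54 (adjusted p = 7.48e-11), with 1.46 of it in E18 against E16, and Pkp2, plakophilin 2, by 2.47 (adjusted p = 9.11e-10). Pkp2 is also made in heart muscle, whose 8 markers had a median difference of 2.94 over the same comparison, and their part in its rise was not tested.

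Of 17 regulators of the epithelial and mesenchymal states, 4 were called higher and 3 lower in Adult against E12, beside 7.8% and 8.78% of all probe sets. By the adjusted p alone 8 rose and 6 fell (28.7% and 31.3% of all). Ehf and Klf5, transcription factors of epithelium, rose by 3.87 (SE 0.153, adjusted p = 7.64e-11) and 2.82 (SE 0.109, adjusted p = 6.23e-11), and Elf5 by 1.76 (adjusted p = 5.83e-06). Snai2 and Snai1, which repress Cdh1 and claudins in other settings, fell by 2.55 (SE 0.102, adjusted p = 7.98e-11) and 1.89 (SE 0.134, adjusted p = 2.64e-08), and Twist2 fell by 1.74 (adjusted p = 6.85e-08). Zeb1, a repressor of the same kind, went the other way, at 10.91 in Adult and 9.46 at E12, a rise of 1.45 (SE 0.0898, adjusted p = 6.41e-09). Grhl2, an activator of epithelial junction genes, had means between 8.39 and 9.19 with a Range of 0.80.

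**Figure D5:**
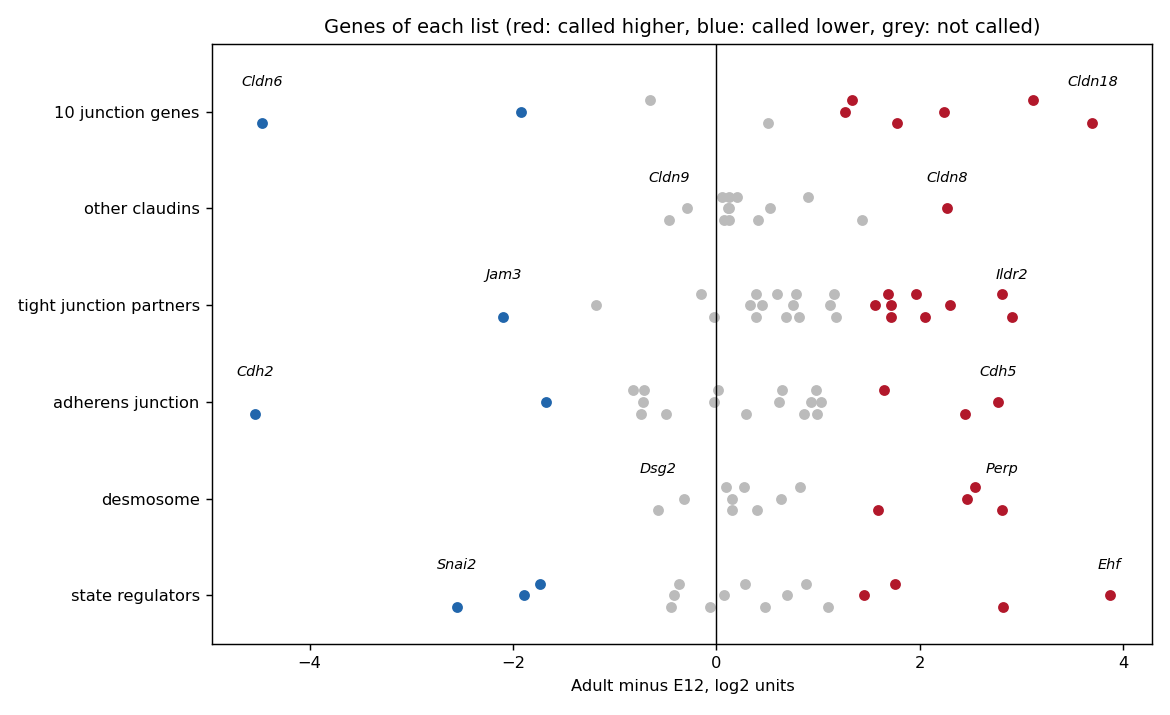
Adult minus E12 in log2 units for the genes of 6 lists, 1 point per gene, with the lowest and highest gene of each list named. Red points were called higher, blue points lower, and grey points were not called. The 10 junction genes span -4.46 (Cldn6) to 3.70 (Cldn18), and other claudins lie mostly near 0.

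By likeness of course over the 7 time-point means, among 11311 genes with a Max above 7, the nearest to Cldn18 were S100a10 (Pearson r = 0.996), Rarres2 (0.9933) and Lgals3 (0.9924). For Cldn6 they were Mphosph6 (0.9986), Eprs (0.9981) and Coq7 (0.9979), for Cldn3 Klf5 (0.9874), Tmem171 (0.9841) and Btg2 (0.9802), and for Cldn5 Uvrag (0.9978), Sharpin (0.9977) and Mprip (0.9965). Cdh1 was nearest to Cdadc1 (0.997), Apmap (0.995) and Pgap4 (0.9932), Ocln to Cers2 (0.994), Dnajb4 (0.9921) and Akap5 (0.9917), and Tjp1 to Pold4 (0.9985), Stap2 (0.9983) and Osbpl8 (0.998). Cldn4 was nearest to Ss18 (0.9839), Hspa8 (0.9838) and Gnl2 (0.978), and Cldn1 to Acyp1 (0.9831), Ap4b1 (0.9672) and Rtl3 (0.9653). For Cldn7 the highest values were lower, with Tpd52 at 0.8981. With 7 points and this many candidates, high values of r are common, and they are given as a description.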

How the data were processed

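RNA from pooled whole mouse lungs had been hybridised to Affymetrix mouse expression arrays. The deposited values are log2 probe-set signals that the authors had normalised over all arrays with Partek 6.4, by GCRMA in the submitters' processing notes and RMA in the methods of the study, so which of them made the table is not settled. GCRMA and RMA force the arrays to 1 distribution, so all changes are relative to the rest of the array. After 64 control probe sets were left out, 45037 were tested. Symbols came from the platform annotation, with 34945 probe sets of 1 symbol, 932 of several and 9160 of none, and probe sets of several symbols named no gene.

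All 14 arrays entered 1 limma fit (limma 3.58.1 in R 4.3.3) with time point as the factor, 7 residual and 6.04 prior degrees of freedom, and Benjamini-Hochberg adjustment over all probe sets. Samples were grouped by their labels. Adjusted p-values are from this fit, from the same fit after subtraction of a marker mean or, where a left-out array or a marker median is named, from the fit so changed. The fit was tested on simulated data. The 10 junction genes, the other lists and the marker lists were chosen with earlier results of these data known. Named from each other list were up to 3 genes with the largest called rise and fall in Adult against E12 and up to 2 each way in E18 against E16, with some that were not called given as such, and by likeness the 3 genes of highest r. Zeb1 and Cldn10 were named outside this rule. Alternatives were a replicate block, an intensity trend, quantile normalisation, a level filter, other thresholds, other tests, other probe sets, marker medians and leaving out each array. The number of arrays limits the precision. Figures were drawn with matplotlib 3.10.9.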

Additional observations from a re-analysis of the deposited data

How the results depend on the processing

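None of the results put to an alternative changed direction. Most steps of single junction genes that were not called were left out of this. Among those left out was Ocln in P2 against E18, where its 2 probe sets had opposite signs. Of 1027 comparisons with an alternative, 968 kept their call, or a count within 1.5 times, 14 lost a call, 9 gained one and 36 counts moved further. With the adjusted p alone, 30390 probe sets differed across the time points and 27021 between Adult and E12, and the step counts for probe sets and for the 10 junction genes were 1505 and 4 (E14 against E12), 7633 and 7 (E16 against E14), 17929 and 9 (E18 against E16), 6772 and 6 (P2 against E18), 3099 and 5 (P10 against P2), and 11837 and 4 (Adult against P10). With a difference above 2, 4104 probe sets were dynamic, 3217 with 4 junction genes were called in Adult against E12, and the steps gave 15 and 0, 119 and 0, 727 and 1, 103 and 0, 26 and 0, and 333 and 0, in the same order. These follow from the thresholds themselves. With the second brightest probe set, 1 junction gene (Cldn18) was called in E14 against E12. Leaving out 1 array at a time gave 40 (without E14 replicate 2) to 120 (without E14 replicate 1) probe sets and 0 to 1 junction genes in E14 against E12, 1 to 2 junction genes in E16 against E14, 0 to 1 in P10 against P2, and 1 to 2 in E18 against E16 relative to epithelial markers. Same-numbered arrays did not deviate together (correlations of -0.267 to 0.123 over 21 pairs of time points, 2 of them over 0.1). These correlations cannot tell whether such arrays shared a pool or were processed together. With the replicate number as a block, 9463 probe sets and 9 junction genes were dynamic and 7467 and 8 were called in Adult against E12, and no call among the junction genes changed.

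Limits are the 2 arrays per time point, whose origin is not given, and RNA of whole lung with a changing mix of cells. The deposited values hold no detection calls, so values such as those of Cldn6 after E16 could not be set against background. Those Cldn6 means ran from 6.10 to 6.69, beside array medians of 6.55 to 6.62. Where each array was left out, the lone array of its time point was assumed to vary like the others.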
